A study of Schizosaccharomyces pombe with 22 samples.

Results

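The intergenic regions (IGRs) of chromosome III of the fission yeast Schizosaccharomyces pombe were the 620 of 5149 IGR names on spotted arrays that began with SPCC, the prefix given to chromosome III genes in the genome project. Of these, 17 carried the word missing and served with the other such names as spots without a product, which left 603 measured regions. They were compared with 2530 measured regions whose names began with SPAC (chromosome I) or SPBC (chromosome II). The comparison sets held 1509 and 1128 names with missing ones included. Names matched the annotation for 608 of the 620 regions, 27 of them through an older name, and all 608 genes lay on chromosome III. The label therefore held in the annotation. A further 240 chromosome III genes had regions named by a gene symbol, which the prefix does not find.

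Chromosome III is the shortest of the 3 chromosomes and carries the ribosomal DNA repeats at both ends, where the nucleolus forms. Pst3 is a homolog of Sin3, a scaffold that brings histone deacetylases to chromatin, and deacetylated histones generally accompany lower transcription. Histone H3 is a core part of every nucleosome, so its immunoprecipitate follows how much nucleosomal DNA a region holds. The study's title places Pst3 in the upkeep of the nucleolus, so the regions of the rDNA-bearing chromosome were set against the others.

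Pst3 tagged with green fluorescent protein (Pst3-GFP) was immunoprecipitated, and its DNA was hybridised against wild-type input on 2 arrays with the dyes exchanged. Replicate 1 held the immunoprecipitate in Cy3, and replicate 2 held it in Cy5. Histone H3 in wild-type cells was measured on 1 array, with the anti-H3 bead fraction in Cy3 and wild-type input in Cy5. H3 arrays of strains labelled hst2D and hst4D, 1 each, were used beside it for the differences between chromosomes and between chromosome arms. Each array had 2 spot sets, which are repeat spots and not replicates. The labels give neither the promoter of the tagged gene, nor the number of clones, nor separate cultures, and p-values therefore cover the spread between 2 arrays that may be technical repeats. A single channel per spot set was deposited and was taken as the immunoprecipitate, which the files do not state. Values below are log2 of that channel's signal intensity over the authors' reference intensity for the region, with the median of each spot set placed at 0.

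The arrays differed in how much signal stood above spots without a product. The 95th percentile of net signal (signal minus local background) over the 208 names carrying the word missing was 4 in both spot sets of Pst3-GFP replicate 1. It was 718.1 and 720.9 on replicate 2, and 390.6 and 362.0 on the H3 array. Of the 603 chromosome III regions, 586 (97.2%) exceeded this limit on replicate 1, 216 (35.8%) on replicate 2 and 265 (43.9%) on the H3 array. The shares on chromosomes I and II were 97.1%, 31.3% and 48.7%. Regions below the limit are not above background on that array.

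The names give a gene but no coordinates, and the side of the gene was read from base composition. Over 593 measured and matched regions, the authors' reference intensity correlated with the GC content of the 500 bases before the named gene's start codon (Spearman's rho = 0.515). It did not follow the 500 bases after the gene (rho = -0.001). These are descriptions over regions that share arrays and base composition. A region is therefore described as lying upstream of the gene in its name, and no ends of the spotted DNA were used here.

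Sequence upstream of 7 of these genes is shown as examples of regions with high or low Pst3-GFP ratios described below. Each line gives the 200 bases before the annotated transcript start, outside all annotated mRNAs, from RefSeq's assembly ASM294v3, since the array files name no build. Capitals mark runs of at least 6 A or at least 6 T, which in budding yeast disfavour nucleosomes. The first set had high ratios.
pex32 (III:1202073-1202272, + strand): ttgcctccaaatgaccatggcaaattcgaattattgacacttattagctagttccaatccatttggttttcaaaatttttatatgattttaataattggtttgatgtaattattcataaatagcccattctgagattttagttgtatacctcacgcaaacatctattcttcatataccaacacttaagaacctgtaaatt
SPCC622.14 (III:1426849-1427048, + strand): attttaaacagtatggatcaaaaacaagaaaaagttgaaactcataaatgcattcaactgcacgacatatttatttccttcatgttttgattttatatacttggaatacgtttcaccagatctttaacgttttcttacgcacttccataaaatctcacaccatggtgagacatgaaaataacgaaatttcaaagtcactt
mog1 (III:2248206-2248405, - strand): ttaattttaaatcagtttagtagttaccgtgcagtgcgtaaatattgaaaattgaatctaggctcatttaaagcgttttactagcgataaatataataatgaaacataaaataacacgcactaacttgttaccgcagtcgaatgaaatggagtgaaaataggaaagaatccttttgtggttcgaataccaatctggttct
pbi2 (III:1355630-1355829, - strand): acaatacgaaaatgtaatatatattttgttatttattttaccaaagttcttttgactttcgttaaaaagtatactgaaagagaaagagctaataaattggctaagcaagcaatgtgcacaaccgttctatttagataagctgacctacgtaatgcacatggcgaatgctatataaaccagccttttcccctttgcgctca
ago1 (III:333879-334078, + strand): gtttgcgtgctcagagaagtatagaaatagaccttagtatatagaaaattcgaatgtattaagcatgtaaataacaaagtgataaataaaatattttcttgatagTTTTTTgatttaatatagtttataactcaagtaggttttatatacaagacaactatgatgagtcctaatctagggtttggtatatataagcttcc
The second set had low Pst3-GFP ratios.
raf2 (III:500565-500764, + strand): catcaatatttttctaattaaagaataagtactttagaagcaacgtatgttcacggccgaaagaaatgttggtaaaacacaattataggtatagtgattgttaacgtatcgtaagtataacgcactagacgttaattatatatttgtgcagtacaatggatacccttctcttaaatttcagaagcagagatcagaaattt
qns1 (III:308620-308819, - strand): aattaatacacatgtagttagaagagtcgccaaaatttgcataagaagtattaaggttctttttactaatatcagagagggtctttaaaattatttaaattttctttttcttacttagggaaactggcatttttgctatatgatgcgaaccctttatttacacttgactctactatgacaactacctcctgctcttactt
The ago1 window held 1 run of 6 bases, and the other windows printed held none. Among windows of such regions not printed, omh3 held a run of 11 bases and inh1 a run of 6. Those of SPCC330.03c, SPCC794.04c and SPCC13B11.03c held none. Of 399 chromosome III windows clear of annotated mRNAs, 184 (46.1%) held such a run, against 848 of 1721 (49.3%) on chromosomes I and II and 50.7% of 3644 windows over all genes.

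Pst3-GFP ratios on chromosome III centred where those of the other chromosomes did. On replicate 1 the medians of the 2 spot sets were -0.01 and 0.06 on chromosome III, against 0.02 and 0.01 on chromosomes I and II. On replicate 2 they were -0.04 and -0.05 on chromosome III, against 0.08 and 0.08 on chromosomes I and II. The difference between the medians, chromosome III minus the others, was 0.02 on replicate 1 and -0.14 on replicate 2, so the arrays differed in sign. The mean difference was -0.06 ± 0.12 (SD, n = 2 arrays), smaller than its spread. With 2 arrays an exact two-sided test cannot go below 0.5, so none was made. Without division by the reference, the difference was 0.08. The quartiles of chromosome III on replicate 1 ran from -1.01 to 0.77, wide beside any shift between chromosomes.

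**Figure D1:**
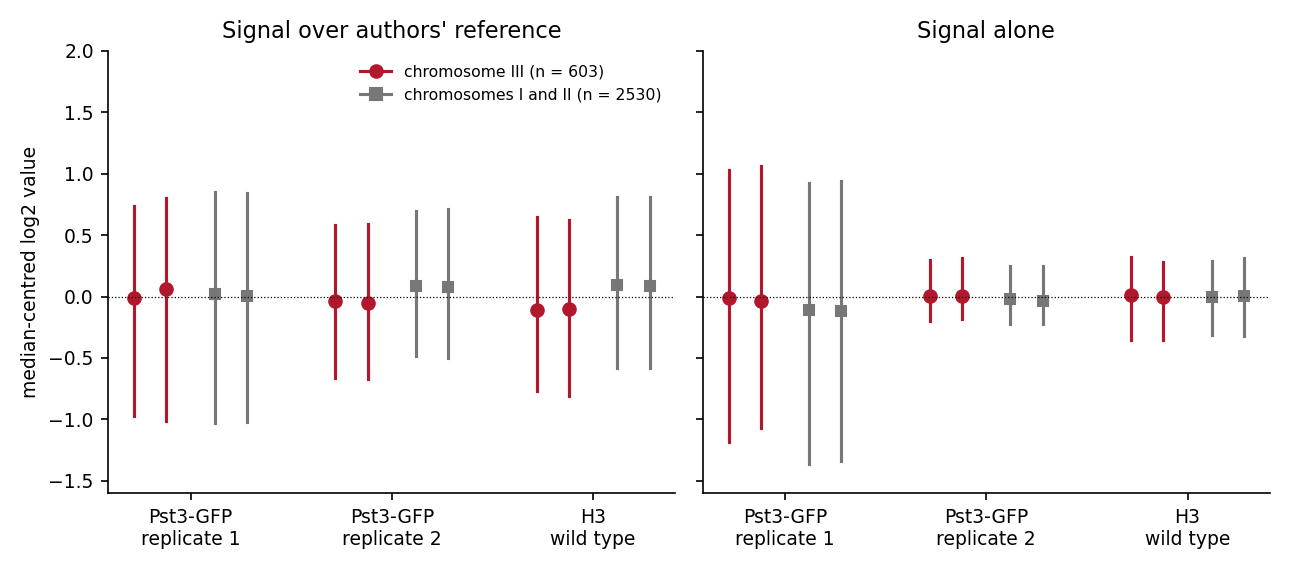
Medians (points) and quartiles (lines) of median-centred log2 values per spot set for 603 chromosome III regions (red, left of each group) and 2530 regions of chromosomes I and II (grey). In the left panel the H3 medians of chromosome III are -0.11 and -0.10, against 0.09 and 0.08, and in the right panel, for the signal alone, they nearly coincide.

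The highest Pst3-GFP ratio among regions above the limit on both arrays was upstream of hsp20 (SPCC338.06c), which encodes a protein of the small heat shock family that binds unfolded proteins. Its Pst3-GFP ratios were 3.00 and 2.93 in the spot sets of replicate 1 and 3.94 and 3.89 in those of replicate 2. Its mean of 3.44 (SE 0.84) passed limma's test across all regions (adjusted p = 0.0068), and its net signals of 635.0 and 1267.0 were above the limit on both arrays. It was the 1 called region for which that held. The call was kept in 6 of 9 other settings and was lost with subtracted background (adjusted p = 0.557) and with either spot set alone (0.0676 and 0.238). Its reference of 67.5 lay at the 1.64th percentile of all regions, and its start codon is at III 1365222. Its signal of 652.0 on replicate 1 was under the spot-set medians of 820.5 and 810 over all regions. On replicate 2 its signal of 2697.5 was over the medians of 1649.5 and 1658.

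With limma and Benjamini-Hochberg adjustment over 4941 regions, 10 of the 603 chromosome III regions passed 0.05, which is 1.66% against 40 of 2530 (1.58%) on chromosomes I and II. Above 0 were 4 regions (0.663%), where 0.951% of all regions tested were called above. Below 0 were 6 regions (0.995%), where 0.769% of all regions were called below. Both shares lie near the background. An unadjusted p under 0.05 was found for 46 chromosome III regions of 467 in all. Because every region received the same standard error of 0.84, a call here depends on the size of the mean ratio.

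The other 3 regions called above lay upstream of pex32, a peroxisome protein, of SPCC622.14, annotated as a GTPase-activating protein, and of adg3, a beta-glucosidase. The pex32 region had ratios of 3.41 and 3.63 on replicate 1 and 4.86 and 4.56 on replicate 2 (mean 4.12, limma's adjusted p = 0.000523). The SPCC622.14 region averaged 1.92 on replicate 1 and 4.88 on replicate 2 (mean 3.40, limma's adjusted p = 0.00763). The adg3 region averaged 0.87 and 4.93 (mean 2.90, limma's adjusted p = 0.0379). All 3 were above the limit on replicate 1, but their net signals of 448.2, 222.8 and 116.0 were under it on replicate 2. Their signals on replicate 1 were 267.0, 88.8 and 36.5, under the spot-set medians of 820.5 and 810 over all regions. On replicate 2 they were 1303.0, 1479.2 and 1295.0, under the medians of 1649.5 and 1658. Their references were 18.8, 19.0 and 16.0, the dimmest 0.121% or less of all regions. With normexp and loess all 3 calls were lost (limma's adjusted p = 0.187, 0.651 and 0.734), and the means were as low as 1.07, 0.50 and 0.41 among the settings tried.

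The 6 regions called below were dark on replicate 1. The region upstream of mrpl31, a protein of the mitochondrial ribosome, had ratios of -7.20 and -6.85 on replicate 1 and -1.85 and -1.87 on replicate 2 (mean -4.44, limma's adjusted p = 0.000138). The region of SPCC794.04c, annotated as a transporter, averaged -5.06 and -2.52 (mean -3.79, limma's adjusted p = 0.00211). Regions of gbs1, a subunit of the glucosidase that trims glycoproteins, and of raf2, a subunit of the complex that methylates H3 in heterochromatin, averaged -5.85 and -5.93 on replicate 1. Both were above the limit on neither array. With their signals raised to the lowest signal among regions above the limit, the means became -3.15 and -3.33, which are upper bounds.
The region upstream of SPCC13B11.03c, a hydroxyacylglutathione hydrolase, averaged -5.60 on replicate 1 and -0.85 on replicate 2. None of the 6 was above the limit on replicate 2. The calls of gbs1 and SPCC13B11.03c were kept in 3 of 8 other settings each, that of raf2 in 4 of 8, that of mrpl31 in 5 of 8 and that of SPCC794.04c in 6 of 9.

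**Figure D2:**
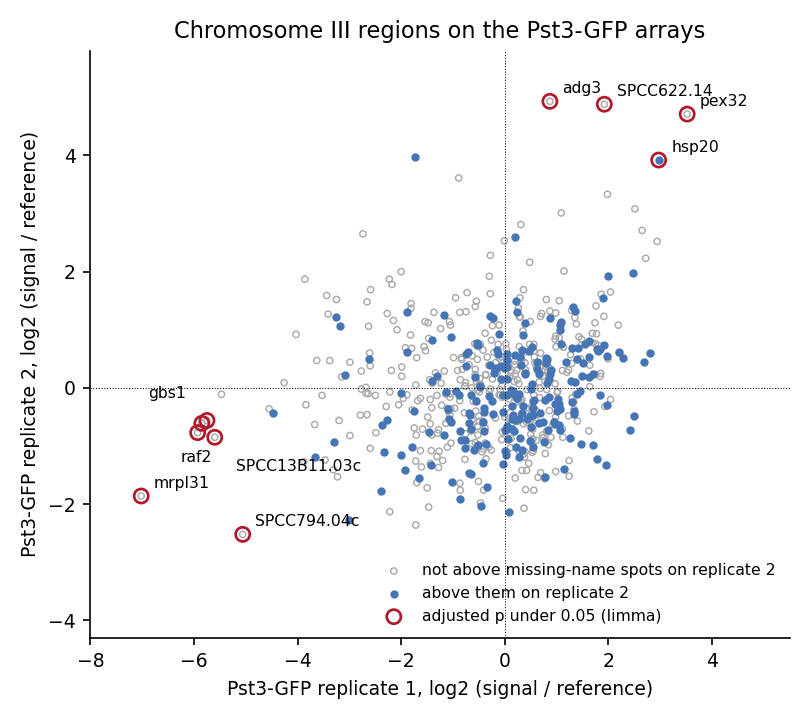
Pst3-GFP log2 ratio on replicate 1 (x axis) and replicate 2 (y axis) for 603 chromosome III regions, each the mean of 2 spot sets. Blue points were above spots without a product on replicate 2, grey ones were not, and red rings mark the 10 regions called by limma. Among the ringed regions the hsp20 point is blue.

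The Pst3-GFP arrays ranked chromosome III regions differently. Ratios on the 2 arrays had rho = 0.171 over the 603 regions, and 0.173 over chromosomes I and II. The signals alone had rho = 0.528, and each also followed the reference (rho = 0.593 on replicate 1 and 0.5 on replicate 2). These correlations are over regions of the same slides and carry no p.

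Some regions were above background on both Pst3-GFP arrays. On chromosome III 215 regions (35.7%) were above the limit on both, where 34.4% of all regions were. Of these 215, 105 had the same sign in all 4 spot sets, 55 of them above 0 and 50 below. Agreement of sign was not counted over all regions, so this count is not read as a trait of chromosome III. After hsp20 the highest was upstream of mog1, which binds the Ran GTPase of nuclear transport. It had 2.52 and 2.41 on replicate 1 and 2.01 and 1.95 on replicate 2 (mean 2.22, limma's adjusted p = 0.219). The region of omh3, a mannosyltransferase of glycoprotein synthesis, had 2.13 and 1.84 on replicate 1 and 1.73 and 2.13 on replicate 2 (mean 1.96). For both, every spot set was at or above 1.73, and the mean did not pass the test.

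The mug117 region averaged 1.90 and 1.54. The region of SPCC330.03c, a cytochrome b5 reductase, averaged 2.80 and 0.60, and that of pbi2, an inhibitor of a vacuolar proteinase, 2.69 and 0.45. Both were high mainly on replicate 1, where their signals were 3526.0 and 4887.0. Across these 6 regions the GC content of the upstream 500 bases ran from 29.4% to 34.4%, around the chromosome III median of 31.8%.

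Among the 6 lowest was the region upstream of dus4, an enzyme that modifies tRNA, with -2.87 and -3.13 on replicate 1 and -2.32 and -2.22 on replicate 2 (mean -2.64, limma's adjusted p = 0.0813). It was also low on the H3 array (-2.36 and -2.05), with a reference of 3440.0 at the 97.8th percentile. The qns1 region, upstream of the last enzyme of NAD synthesis, averaged -4.47 on replicate 1 and -0.43 on replicate 2. The SPCC320.06 region averaged -3.67 and -1.19. For both, replicate 1 was the lower array by far.
The region upstream of bdf1, a bromodomain subunit of the Swr1 chromatin remodeller, had discordant spots on replicate 1 (-1.84 and -4.75) and concordant ones on replicate 2 (-0.89 and -0.96). The SPCC191.04c region averaged -2.40 and -1.78, and that of inh1, an inhibitor of the mitochondrial ATPase, -2.34 and -1.10. None of these 6 passed the adjusted threshold.

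**Figure D3:**
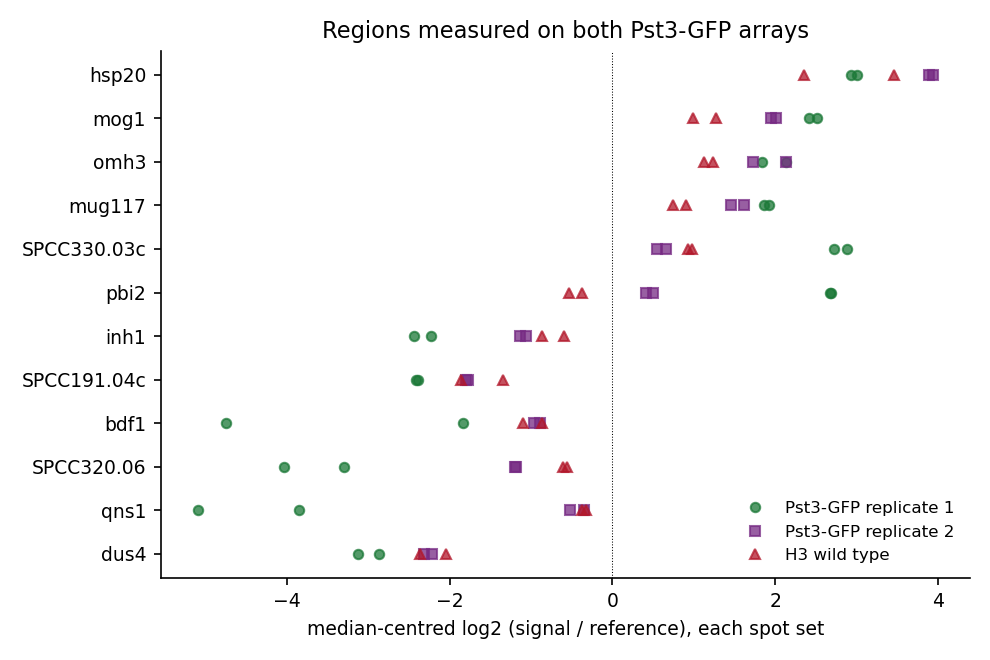
Median-centred log2 ratios in each spot set for the 6 highest and 6 lowest chromosome III regions among those above spots without a product on both Pst3-GFP arrays with 1 sign in all spot sets. Green circles are Pst3-GFP replicate 1, purple squares replicate 2 and red triangles H3 in wild type. The shared side of 0 on the Pst3-GFP arrays was part of the choice. The H3 ratio lies on that side in 11 of the 12 regions, all but pbi2. It is divided by the same reference as replicate 2, and those ratios had rho = 0.81 over the 603 regions.

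H3 ratios were lower on chromosome III than on the others, while H3 signals were alike. The median ratios were -0.11 and -0.10 in the 2 spot sets on chromosome III, against 0.09 and 0.08 on chromosomes I and II. The difference was -0.19, with -0.20 and -0.18 in the spot sets. There was 1 array, so the difference has no replicate check. On the hst2D and hst4D arrays the same difference was -0.13 and -0.15, where 2.99% and 3.98% of chromosome III regions exceeded the limit. On the Pst3-GFP arrays it was 0.02 and -0.14. All these arrays were divided by the same reference. Median H3 signals were 1069.0 and 1066.0 on chromosome III, against 1054.8 and 1073.0 on chromosomes I and II, a difference of -0.003 on the log2 scale. The median reference was 684.2 on chromosome III, against 625.8 on chromosomes I and II, with 593.2 on chromosome I and 666.9 on chromosome II. The H3 ratio followed the reference closely (rho = -0.919 over the 603 regions), as did the ratio on Pst3-GFP replicate 2 (rho = -0.913), while replicate 1 did not (rho = -0.052).

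**Figure D4:**
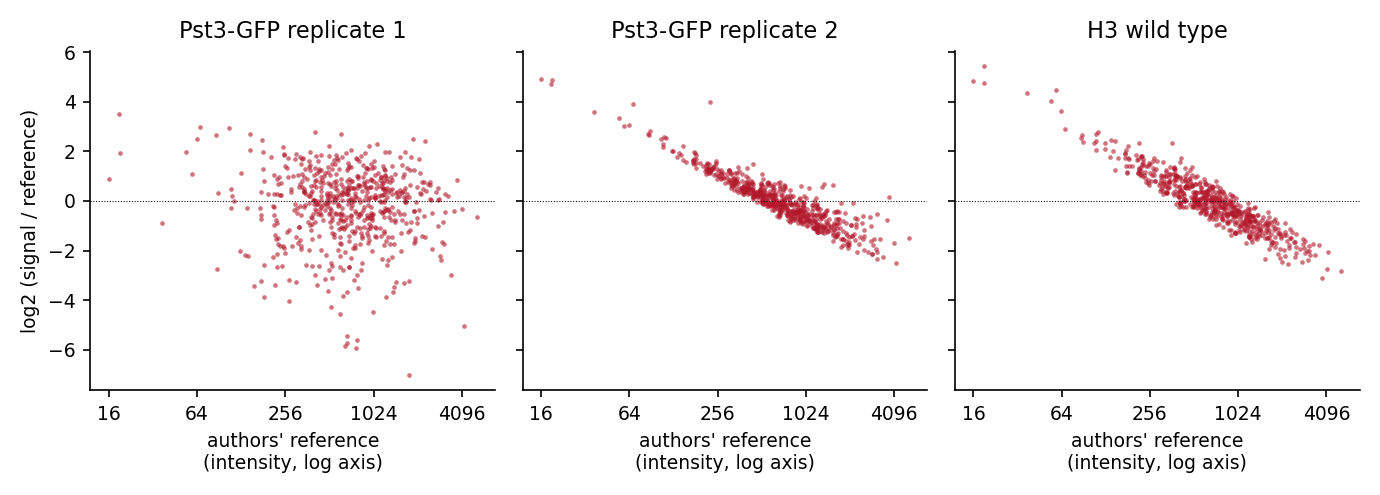
Median-centred log2 ratio of each chromosome III region (y axis) against the authors' reference intensity (x axis, log scale) on the Pst3-GFP arrays and the H3 array. Replicate 1 shows a broad cloud, and replicate 2 and H3 show a steady fall as the reference rises.

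Counting regions beyond 1 on the log2 scale (a 2-fold difference) in both spot sets, 84 chromosome III regions (13.9%) were above, where 15.2% of all regions were above and 17.2% on chromosomes I and II. Below were 99 (16.4%), where 16.2% of all regions were below and 12.3% on chromosomes I and II. All 84 regions above had a reference under the median of all regions, and all 99 below had a reference over it. On the signal alone, 2 regions exceeded the array median by 1 in both spot sets and none fell under it by 1. Those 2, named after their values were seen, lay upstream of get4, which acts in membrane insertion of proteins, and pop23, a subunit of RNase P and RNase MRP. Their net signals were 223.5 at get4 and -1123.0 at pop23, both under the limit. The counts by reference and on the signal alone were not made over all regions, so they are not read as traits of chromosome III.

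Of 265 chromosome III regions above the limit for H3, 74 were beyond 2-fold, with 36 high and 38 low. Over all regions, 685 of 2378 above that limit were beyond 2-fold. The highest was upstream of nup60, a protein of the nuclear pore, with 3.90 and 4.13. The region of ago1, the Argonaute protein of RNA interference and heterochromatin, had 2.27 and 2.81. Others were at dip5, an amino acid transporter (mean 2.78), rpm1, an RNA exonuclease (2.48), and fmn1, which makes flavin mononucleotide (2.41). The references of these 5 all lay at percentile 4.52 of all regions or lower.
The sixth high region, upstream of the phospholipase gene plb5, differed: its reference was 361.2 and its H3 signal averaged 3587.8. Its spot sets were far apart, at 3.25 and 1.46, so the size is uncertain.

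The lowest H3 ratios were upstream of nmd5, an importin-type transport receptor (-2.75 and -2.92), and SPCC1322.09 (-2.46 and -2.29). The dus4 region followed, then aah1, a cell-surface glycosyl hydrolase (mean -2.19), SPCC794.04c (-2.04) and oca2, a protein kinase (-2.03). Their H3 signals ran from 964.5 to 1674.2, against array medians of 1058.5 and 1069.0, and their references from 3065.5 to 5183.0. The nmd5 region was bright with Pst3-GFP, with signals of 4044.2 and 4928.2.

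Along the chromosome, H3 signal differed between the arms on either side of the centromere. The widest stretch without a protein-coding gene, taken as the centromere, ran over III 1064196 to 1143090. H3 signals on the left arm (260 regions) had medians of 1165.8 and 1152.5 in the spot sets, against 986.0 and 959.5 on the right arm (333 regions). The left arm was 1.18 and 1.20 times the right. Of 11 windows of 100 kb up to 1100 kb, 10 had a median H3 signal above the array median, against 2 of 14 windows beyond it.

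Local background moved the same way on this array, with medians of 740.5 and 765.0 on the left arm, against 690.0 and 645.0 on the right. Net signals were 382.8 and 406.8 on the left arm, against 314.0 and 325.0 on the right. The part of the local background in the arm difference was not tested. On the H3 arrays of hst2D and hst4D the left arm was 1.01 to 1.03 times the right in signal, but 2.99% and 3.98% of chromosome III regions there exceeded the limit for spots without a product. H3 over the reference had medians of -0.11 on the left and -0.10 on the right. The left arm's median reference was 760.6, against 653.0 on the right.

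**Figure D5:**
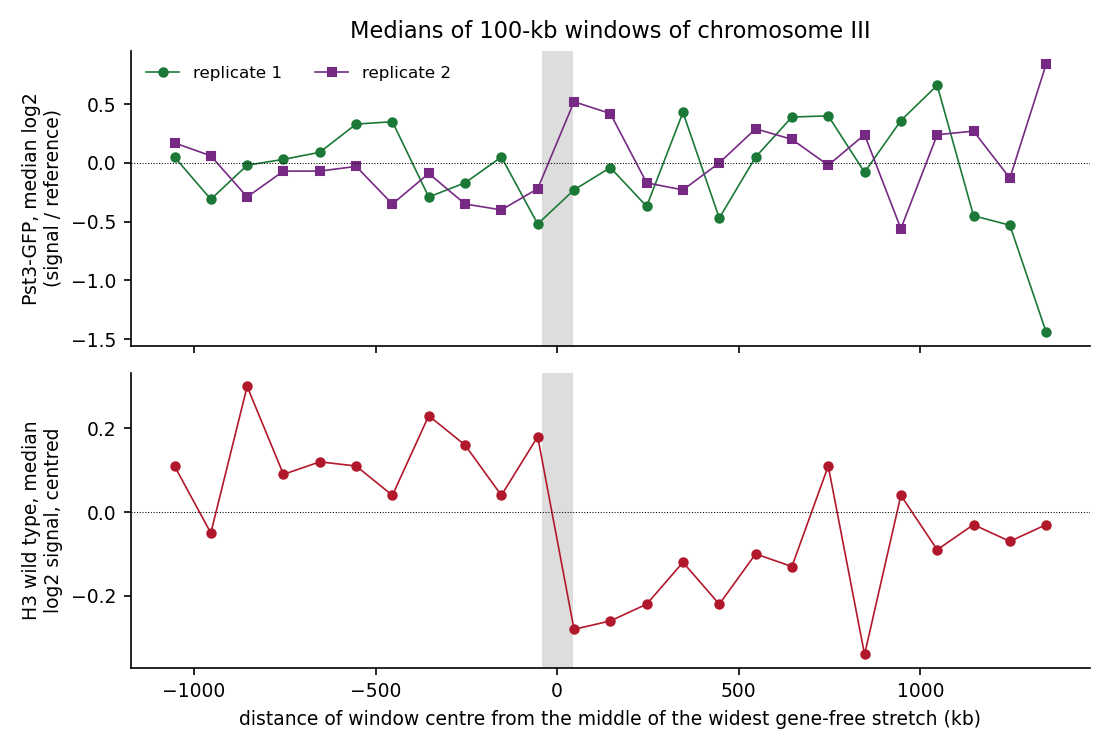
Medians of 100-kb windows of chromosome III, placed by distance from the middle of the widest gene-free stretch (grey band). The upper panel gives the Pst3-GFP log2 ratio on replicate 1 (green circles) and replicate 2 (purple squares), and the lower panel the median-centred log2 H3 signal, which is above 0 in 10 of 11 windows left of 1100 kb and in 2 of 14 to its right.

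Medians of the mean Pst3-GFP ratio were -0.13 on the left arm and 0.00 on the right. On replicate 1 both arms had a median of 0.02. On replicate 2 the medians were -0.14 on the left arm and 0.06 on the right. Of the regions called, the 260 regions of the left arm held 0 above and 5 below, and the 333 of the right arm 4 above and 1 below. Over all regions 0.951% were called above and 0.769% below, and the difference between arms was not tested. Cosmids, the cloned segments that give the names, were also uneven between arrays: of 43 cosmids with at least 8 measured regions, 16 had medians of the same sign on both arrays, and their medians had rho = 0.02. The cosmid medians of the mean ratio ran from -1.06 to 0.58.

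The 33 measured regions within 100 kb of an end, nearest the rDNA, had a median Pst3-GFP ratio of -0.47 on replicate 1 and 0.24 on replicate 2. None of them was called, and the mean had a median of -0.07, equal to that of the whole chromosome (-0.07). The medians on the 2 arrays had opposite signs at the right end (17 regions, -0.71 and 0.49) and were both above 0 at the left end (16 regions, 0.05 and 0.17). Median H3 ratio was 0.34 at the ends and median H3 signal -0.11.

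Regions nearest the left end were those of SPCC1884.01 (mean Pst3-GFP ratio 0.15), SPCC757.02c (0.24) and hsp3101, a glyoxalase (0.39). Nearest the right end, SPCC569.02c averaged -1.44 and -1.30 and SPCC569.03 averaged 1.43 and 0.88, although these genes diverge from a shared interval of 1264 bases. The regions of SPCC1884.01, SPCC757.02c, SPCC569.02c and SPCC569.03 were under the limit on replicate 2. SPCC569.04 had -1.57 and -1.88 on replicate 1 but 1.21 and 6.75 on replicate 2, where its spot sets were discordant. Among end regions the mean ratio largest in size was that of SPCC757.04, annotated as a transcription factor (-1.63, limma's adjusted p = 0.543), with -2.79 on replicate 1 and -0.47 on replicate 2. The spermidine transporter gene SPCC569.05c had 1.48 and 0.84, and pcs60, an acetyl-CoA ligase, -2.99 and 0.44.

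Within 50 kb of the centromeric stretch, 33 regions had a median ratio of -0.11 on replicate 1 and -0.12 on replicate 2. The gbs1 region was the 1 called among them, below. On the left flank the nearest region was that of gid1 (-1.68 and -0.22), and on the right flank that of ppc1, an enzyme of coenzyme A synthesis (-3.47 and -1.24, limma's adjusted p = 0.166). The region of iec3, a subunit of the Ino80 remodeller, averaged -3.67 and -0.63, and that of tip41, a phosphatase regulator, -1.61 and -1.36. The gid1, ppc1 and iec3 regions were under the limit on replicate 2.

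Genes of the nucleolus and of ribosome synthesis were picked among the SPCC names by a fixed list of symbol beginnings. That list is not complete: it did not hold ipi1, annotated as an rRNA processing protein, or bcd1, annotated as a snoRNA biogenesis protein. Regions named by a gene symbol were not searched. Of 12 regions picked by symbol, 11 were measured, none was called, and their median ratio was 0.05 on replicate 1 and 0.49 on replicate 2, beside 0.03 and -0.07 for all of chromosome III. The region of rrp5, a processing factor of ribosomal RNA, averaged 1.77 and 0.93 (limma's adjusted p = 0.698). That of dbp9, a helicase of ribosome synthesis, averaged -4.03 and 0.92, and that of rix1, a large-subunit assembly factor, 0.48 and 2.16. The dbp9 region was above the limit on neither array, and the rrp5 region was under it on replicate 2. The symbol rule also took in dip5, which is an amino acid transporter, and the medians and counts of the list include it. The H3 ratios of this list had a median of 0.59, with 4 of 11 above and 0 below 2-fold, where 15.2% of all regions were above and 16.2% below. Among the 4 was dip5, with the largest H3 ratio of the list (2.78). The median reference of the list was 430.2. The ribosomal protein list held 1 region, rpp21, which encodes a subunit of RNase MRP and not a ribosomal protein, with 0.78 and -0.21.

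Of 5 regions picked by a fixed list of chromatin gene symbols, none was called. That list is not complete: it did not hold raf2, whose region was called below. The ago1 region was high in every spot set, with 2.67 and 2.64 on replicate 1 and 2.67 and 2.76 on replicate 2 (mean 2.68, limma's adjusted p = 0.0717). Its reference was 86.2, and its net signal of 213.5 on replicate 2 was under the limit. The region of epe1, a JmjC protein that opposes heterochromatin spreading, averaged 1.84 and 0.20. That of hst2, a sirtuin deacetylase, averaged 0.65 and 0.24, that of rxt3, a subunit of histone deacetylase complexes, -0.52 and -0.04, and that of dcr1, which cuts double-stranded RNA, -1.81 and 1.37. The rxt3 region was under the limit on replicate 2.

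A tRNA gene lay within 1 kb of 17 regions, of which none was called, with median ratios of -0.09 on replicate 1 and 0.08 on replicate 2. The largest means were those of pps1, which makes phosphatidylserine (-2.36), mrpl37, a mitochondrial ribosomal protein (1.40), tfx1, a translin protein (1.24), and nmd5 (-1.07). None of the 4 passed limma's test, and the pps1 region was under the limit on replicate 2.

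Regions between diverging and tandem genes had similar Pst3-GFP medians. Between diverging genes, 308 regions had median ratios of 0.03 on replicate 1 and -0.09 on replicate 2, against 0.02 and 0.03 for 285 regions between genes in tandem. The median H3 ratio was -0.20 between diverging genes and 0.02 in tandem, with median references of 722.6 and 630.8. The median H3 signal was -0.03 and 0.03. Neighbouring regions can share DNA, which was not tested. For 21 diverging pairs under 500 bases apart, the reference had rho = 0.55 and the H3 signal rho = 0.46 between partners. The Pst3-GFP signals of these pairs had rho = 0.07 on replicate 1 and 0.01 on replicate 2. For 83 diverging pairs 500 bases or more apart, rho was 0.36 for the reference and 0.18 for the H3 signal. For the Pst3-GFP signals of those 83 pairs it was 0.24 on replicate 1 and 0.27 on replicate 2.

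Ratios on 2 of the 3 arrays moved with base composition. The regions were split into 4 classes of upstream GC content, from 24.6% to 30.2% in the lowest to 34.0% to 44.6% in the highest. The median H3 ratio was 0.65, 0.09, -0.31 and -0.78 from the lowest class to the highest. The median reference over the same classes was 422.5, 618.2, 828.9 and 1160.0, and the median H3 signal 0.00, -0.09, 0.02 and 0.03. Pst3-GFP on replicate 2 fell likewise (0.43, 0.19, -0.19 and -0.62), and replicate 1 did not (-0.26, 0.12, 0.07 and 0.04).

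Median signals on the 3 arrays were lower where windows held the A or T runs marked above. On Pst3-GFP replicate 2 they fell no further with 2 or more runs. Among the 399 windows, the median H3 signal was 0.04 for 215 without a run, -0.02 for 117 with 1 run and -0.16 for 67 with 2 or more. The median signal on Pst3-GFP replicate 1 was 0.19, -0.02 and -0.39 over the same classes, on replicate 2 it was 0.06, -0.03 and -0.03, and the reference 774.2, 610.0 and 553.5. Over the reference, the H3 medians rose instead (-0.23, -0.02 and 0.06), so the direction depends on that division. Window GC content also differed between the classes (34.0%, 31.5% and 30.5%), and its part in this was not tested. The sequence GAANNTTC, read the same on both strands and holding a pair of heat shock factor units, was found in 30 of these 399 windows (7.52%), against 6.86% on chromosomes I and II, and in the printed windows of SPCC622.14 and ago1.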

How the data were processed

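Spotted-array files for IGR probes were used. Per the file headers, the authors deposited intensity values, namely each spot's median signal, its local background and a reference for the region that 1 header names as a wild-type median. Every file held 1 channel and 1 spot set. Scanner, software, probe coordinates and build are not given in the sources, and flags, whose codes are unexplained, were not used. Labels cite a published chromatin immunoprecipitation protocol.

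Duplicate names were averaged. Signals were divided by the reference, log2 transformed and centred on the array median without loess or background subtraction, and spot sets were averaged. The 2 Pst3-GFP arrays were fitted with lmFit and eBayes (limma 3.58.1, R 4.3.3) over 4941 regions with Benjamini-Hochberg adjustment at 0.05. H3, with 1 array, was described without a test. On simulated data with 4941 regions, the test called 28 of 100 with a log2 difference of 2, 98 of 100 with a difference of 4, and 5 of 4741 without a difference. The simulated noise was normal, independent and alike on both arrays, and the differences were equal on both. On the measured arrays the ratio followed the reference on replicate 2 and not on replicate 1. The simulated counts therefore give no error rate for the measured arrays.

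The members, lists and rules were chosen with earlier results of these data known. Named regions were all those called, except 1 that is not reported here, the 6 highest and 6 lowest by Pst3-GFP and by H3 among regions above spots without a product, those nearest the ends and the centromere, and up to 4 per list by size. Chromosome ends meant 100 kb, centromere-proximal 50 kb and tRNA neighbours 1 kb. Positions came from RefSeq's ASM294v3 by gene name (Python 3.11.15). The number of arrays limits the precision. Alternatives were other background corrections, loess, filters on dim regions, single spot sets, single chromosomes and leaving out either array.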

Additional observations from a re-analysis of the deposited data

How the results depend on the processing

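The number of chromosome III regions called for Pst3-GFP (10) was 12 without the dimmest 25% of regions, but with 0 above and 12 below, because that filter removed all 4 regions called above and left 1 of the 6 called below. It was 10 with chromosome II alone and 10 with matched names only. It was 0 with subtracted background, where limma called 0 of 4669 regions, 74 with normexp, 42 with normexp and loess, 4 among regions above spots without a product, 1 with spot set 1 alone, 0 with spot set 2 alone, and 16 with chromosome I alone. The cause was not tested, except that fewer regions or spots enter some settings. The Pst3-GFP median difference of -0.059 lay between -0.141 and 0.023 when either array was left out. It was 0.083 for the signal not divided by the reference, and elsewhere lay within the spread between arrays.

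The H3 median difference of -0.186 was negative under every setting that divided by the reference. It was -0.271 with subtracted background, -0.151 with normexp, -0.154 with normexp and loess, -0.206 without the dimmest regions, -0.137 among regions above spots without a product and -0.198 with the first spot set. It was -0.209 against chromosome I, -0.167 against chromosome II, -0.205 without the chromosome ends and -0.175 with regions assigned by annotation, an alternative chosen after seeing the data. For the signal not divided by the reference it was -0.003, with 0.019 and -0.009 in the spot sets. The count of 183 regions beyond 2-fold was 53 with normexp and loess, 119 without the dimmest regions and 74 above spots without a product, and otherwise within 1.5 times. The planned comparison with the authors' value table was not run, because its row numbers could not be paired with region names. No paired analysis was possible because the Pst3-GFP ratios had no second group with the same replicate numbers. Signal over background limits the readout on Pst3-GFP replicate 2 and the wild-type H3 array, and more on the hst2D and hst4D arrays.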
